A study of Homo sapiens with 16 samples.

Results

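The 76 genes described here encode the proteins of the cytosolic ribosome. They were chosen by symbol from the protein-coding genes of the human GENCODE annotation: RPL or RPS followed by a number and an optional letter or X, together with RPLP0, RPLP1, RPLP2 and RPSA. S6 kinase genes, symbols with an L suffix and pseudogenes were left out. The rule found 77 genes, and 76 of them had a transcript in the expression tables, of 35810 genes with a transcript in all. RPL7A was not analysed here. The large subunit contributed 45 members and the small subunit 31. All 76 passed the filter on low counts, among 16705 genes tested, and a member had between 1994 and 59286 reads in a library.

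The 16 RNA libraries came from SA121, a human embryonic stem cell line, after 19 days of differentiation to pancreatic progenitor cells. All of these cells carried the NGN3-GFP reporter, in which green fluorescent protein marks expression of the endocrine gene NEUROG3, and all therefore came from 1 reporter line. Latrunculin B (LatB), a compound that depolymerises actin, was given at 0.5 µM, and cells were harvested at 3 h (n = 3), 6 h (n = 3), 12 h (n = 2) or 24 h (n = 3). The references were cells taken at 0 h (control 0 h, n = 3) and cells kept for 24 h in the vehicle DMSO (control 24 h, n = 2). The treatment tag of the 0 h cells reads DMSO, whereas the series text places their harvest ahead of any treatment. The study asked which steps lie between the loss of actin filaments and endocrine specification. Nothing in the labels says that replicates were separate cultures, so a p-value may measure technical spread.

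Each cytosolic ribosome holds 1 copy of nearly every ribosomal protein, bound to ribosomal RNA in a small subunit that decodes messenger RNA and a large subunit that joins amino acids. The genes are among the most highly expressed of growing cells, and ribosome production is a large part of a cell's biosynthetic cost. Their messenger RNAs typically begin with a cytosine followed by a run of pyrimidines, the 5′ terminal oligopyrimidine (TOP) tract, through which mTORC1 signalling and the protein LARP1 control translation and stability. Free RPL5 and RPL11, bound to 5S ribosomal RNA, can inhibit the ubiquitin ligase MDM2.

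The TOP tract was visible in the genome at the start sites of most members. RefSeq promoters (GRCh38.p14) were matched for 61 of the 76 genes. The base at the start was a cytosine followed by at least 4 pyrimidines in 41 of the 61 (67.2%), compared with 4.04% of 27305 promoters of all genes. The 10 members on which later results turn are shown as windows of 30 bases, 10 before the RefSeq start and 20 from it. Capitals mark the unbroken run of pyrimidines that opens at the start, and a window without capitals has none there.
RPS6: gaagttggccCTCTTTTCCgtggcgcctcg
RPSA: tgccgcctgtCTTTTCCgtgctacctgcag
RPS19: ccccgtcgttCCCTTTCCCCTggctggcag
RPS14: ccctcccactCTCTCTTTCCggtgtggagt
RPLP0: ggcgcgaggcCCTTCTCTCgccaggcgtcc
RPLP1: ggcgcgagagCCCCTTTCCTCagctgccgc
RPL28: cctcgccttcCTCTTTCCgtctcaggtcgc
RPL3: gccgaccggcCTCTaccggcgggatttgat
RPS28: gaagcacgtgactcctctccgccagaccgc
RPS26: acataacctcgattttcttccgccatccgg
The windows lie at chr9:19380217-19380246 on the minus strand for RPS6, chr3:39406710-39406739 on the plus strand for RPSA, chr19:41860245-41860274 on the plus strand for RPS19, and chr5:150449720-150449749 on the minus strand for RPS14. They lie at chr12:120201092-120201121 on the minus strand for RPLP0, chr15:69452808-69452837 on the plus strand for RPLP1 and chr19:55385922-55385951 on the plus strand for RPL28. Those of RPL3, RPS28 and RPS26 lie at chr22:39319604-39319633 on the minus strand, chr19:8321486-8321515 on the plus strand and chr12:56041908-56041937 on the plus strand. In RPS28 and RPS26 the base at the RefSeq start was not a pyrimidine, although runs of pyrimidines stood a few bases downstream. A start site in use in these cells may differ from the RefSeq start and was not measured.

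Other letters in the 300 base promoters, searched on both strands, were also counted. The ETS motif CCGGAAG was in 34.4% of member promoters and 10.7% of all promoters. It was in 17.2% of 12198 promoters of genes tested, in 15 of 42 promoters of ribosome biogenesis factors and in 29 of 69 of mitochondrial ribosomal proteins. The YY1 motif AAGATGG was in 11.5% and 6.06%, the E-box CACGTG in 4.92% and 7.43%, and the TATA box TATAAA in 6.56% and 12.0% (6.47% of promoters of genes tested). Among 42 promoters of ribosome biogenesis factors the E-box was in 38.1% and the TOP-like start in 11.9%. The last letters of the ETS motif are the first of the YY1 motif, so that matches to both can overlap, and a match describes the sequence only.

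Libraries held between 23609727 and 33515398 reads. The sum of 12 progenitor markers was 3793 to 5698 CPM. CPM is a gene's reads per 1e6 reads of the library after TMM scaling. That scaling sets library sizes so that the typical gene stays level. Among the 12, GP2, CDH1 and EPCAM had the highest medians (1699, 1057 and 896 CPM), whereas PTF1A stayed between 0.0676 and 0.732 CPM. LIN28A made up most of the 203 to 433 CPM of the 4 pluripotency markers. One library stood apart, LatB 12 h replicate 2. It had 1042 CPM of 6 mesenchyme markers against 159 to 433 elsewhere, and 2226 CPM of 5 hepatocyte markers against 715 to 1146. Its 3 detected endothelial markers summed to 40.2 CPM against 3.68 to 16.1. Most of that sum was KDR (37.0 CPM), and CDH5 and PECAM1 had at most 0.981 and 2.20 CPM in any library. LatB 12 h replicate 2 also had the lowest progenitor sum and the highest sum of 12 genes of the 5S particle and p53 response (1636 CPM against 728 to 1107). LatB 24 h replicate 1 came next in 4 of these sums. It had 1146 CPM of hepatocyte markers, 16.1 CPM of endothelial markers, 1107 CPM of the 5S list and 4477 CPM of progenitor markers. Its mesenchyme sum (246 CPM) lay within the range of the others. Its sum of 9 endocrine markers was 122 CPM, against 375 and 338 CPM in LatB 24 h replicates 2 and 3. The albumin gene ALB had group means of 0.329 to 2.24 CPM. Values at 12 h include LatB 12 h replicate 2 unless stated, and many of the 12 h values that it moves are also given without it. It also entered the fit shared by all groups and so moved calls at the other times. Only some of those changes are given. Other markers moved with time in LatB. The sum of 9 endocrine markers was 38.6 to 47.7 CPM at control 0 h and 74.9 to 88.4 CPM at control 24 h, against 68.8 to 115 CPM at 3 h, 102 to 161 CPM at 6 h, 103 and 133 CPM at 12 h and 122 to 375 CPM at 24 h. The pluripotency sum was 388 to 433 CPM in the controls and 203 to 263 CPM in every LatB library. The part of these markers in the results at any time was not tested. In bulk RNA, fewer cells of a type and less RNA per cell cannot be told apart.

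In control 0 h cells, 60 of the 76 members ranked among the 100 genes of highest expression per length. In TPM, which divides reads by transcript length, levels ran from 259 to 5012 with a median of 1905. RPS27 was highest (5012 ± 261, SD, n = 3), followed by RPL41 (4326 ± 186) and RPL31 (4092 ± 232). RPL41 and RPL31 did not differ beyond their spread. RPL22, an RNA-binding member that cells can lack, was the lowest of the other 74 (875 ± 44.2). RPS9 (261 ± 51.6) and RPS26 (259 ± 7.70) lay far below it, and their levels did not differ beyond their spread. RPS9 lies at chr19:54200809-54249003 within the leukocyte receptor region and RPS18 at chr6:33272075-33276511 within the major histocompatibility region, both of which the assembly carries in alternate copies. Reads of these members may have been divided among copies, and their values are uncertain. RPL23A and RPS28 also share sequence with pseudogenes, which took 36.3% and 34.4% of the reads of gene and pseudogenes together. For 70 members that share was under 1%.

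Together the members took a larger share of reads in every 6 h and 24 h LatB library than in any control library. Their share was 4.44%, 4.17% and 4.17% in the 3 control 0 h libraries and 4.25% and 4.35% in the control 24 h libraries. It was 4.30%, 4.49% and 4.41% at 3 h and 4.54%, 4.53% and 4.77% at 6 h. At 12 h it was 4.96% and, in replicate 2, 4.48%, and at 24 h it was 4.75%, 4.97% and 4.86%. The 3 h libraries and LatB 12 h replicate 2 lay close to the highest control, and the 3 h range overlapped it. The group means were 4.26% ± 0.161 at control 0 h, 4.30% ± 0.0672 at control 24 h and 4.86% ± 0.106 at LatB 24 h (SD, n = 3, 2 and 3). As a share of all TPM, the members took 15.4% at control 0 h and 17.1% at LatB 24 h. The large subunit took 2.66% and 3.02% of reads in these groups and the small subunit 1.59% and 1.84%.

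**Figure D1:**
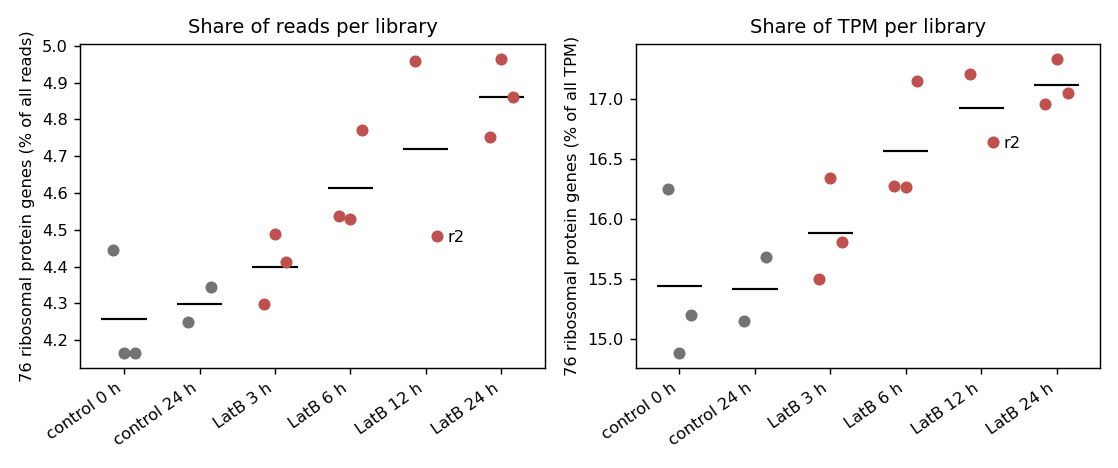
Share of the 76 ribosomal protein genes in all reads (left) and in all TPM (right), in percent, by group. Each point is a library, lines are group means, grey marks controls and red LatB, and r2 marks LatB 12 h replicate 2, the library that stood apart. All LatB 24 h libraries lie above all control libraries on both scales.

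The change of each gene was tested with edgeR's quasi-likelihood test on gene counts, with the 6 groups in one fit and Benjamini-Hochberg adjustment over all 16705 genes. Calls were made where the adjusted p was below 0.05. The 3 h, 6 h and 12 h groups were all compared with control 0 h and so share those libraries. No vehicle group was taken at 3, 6 or 12 h. At those times LatB cannot be told apart from time in culture, which also holds for the difference between 24 h and 3 h.

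After 3 h of LatB, 16 of 76 members (21.1%) were higher and 0 were lower, where 16.8% of all genes tested were higher and 31.6% were called in either direction. The count was thus close to the background. By edgeR 43 members had an unadjusted p under 0.05, and DESeq2 called 21 higher. The median change of the members was 0.13 on the log2 scale (9.50%), with 73 of 76 above 0, and the median of all genes was 0.002. In 55 members every 3 h library lay above every control 0 h library, which was so for 25.3% of all genes. The count at 3 h did not withstand changes of processing: in either direction it was 3 without scaling beyond library size, 2 on log2 TPM with limma and 28 when only the compared groups were fitted. It was 2 without control 0 h replicate 2, control 0 h replicate 3 or LatB 3 h replicate 2, 3 without LatB 3 h replicate 3, and 5 or 6 without LatB 3 h replicate 1 or any 6 h library. It was 9 without LatB 24 h replicate 3, 10 without control 24 h replicate 2 and 45 without either 12 h library.

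After 6 h, 62 members (81.6%) were higher and 0 were lower, 37 of the large and 25 of the small subunit, against backgrounds of 22.9% higher and 20.4% lower. The median change was 0.22 (16.1%), against -0.01 for all genes. The libraries of the groups did not overlap in 72 members, as in 29.5% of all genes. Among the largest positive values were those of RPS26 (0.43), RPL28 (0.40), RPL27A (0.31) and RPS9 (0.29, adjusted p = 0.185 by edgeR, not called). The 14 members not called included RPL3, RPL7, RPL10A, RPL26, RPL27, RPL36A, RPL37, RPL39, RPS7, RPS9, RPS14, RPS18 and RPS19. Without scaling beyond library size 27 members were called and on log2 TPM with limma 16, with medians of 0.12 and 0.11. The factors of TMM scaling themselves differed between groups, and without them the median of all genes at 6 h stood at -0.10. Without LatB 6 h replicate 3, control 0 h replicate 2 or control 0 h replicate 3, the calls were 27, 30 and 37.

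After 12 h, 23 members (30.3%) were higher and 1, RPS18, was lower, against backgrounds of 19.1% and 16.8%. The median change was 0.13. This comparison rested on a single library: without LatB 12 h replicate 2 the median was 0.25, and without LatB 12 h replicate 1 it was -0.0078. Without control 0 h replicate 2, 15 were called. Groups did not overlap in 22 members that were higher (26.3% of all genes) and 1 that was lower. RPS9 (0.73), RPS26 (0.57), RPS19 (0.40), RPL28 (0.29) and RPL41 (0.28) changed most upwards. Without LatB 12 h replicate 2, RPS26 (0.66), RPS19 (0.36), RPL28 (0.38) and RPL41 (0.33) were still called by edgeR, as were RPLP0 (0.25), RPLP1 (0.39), RPS28 (0.37) and RPSA (0.25). RPS9 (0.54, adjusted p = 0.0881) and RPS18 (-0.37, adjusted p = 0.0560) were then not called by edgeR. RPL5 (0.28), RPL11 (0.19), RPL22 (0.21), RPL38 (0.20), RPLP2 (0.25) and RPS6 (0.22) were called only then. Without LatB 12 h replicate 1, RPLP0, RPLP1, RPS28 and RPSA were not called.

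After 24 h, compared with control 24 h, 29 members (38.2%) were higher and 0 were lower, against 21.9% of all genes higher. They comprised 15 of the large and 14 of the small subunit, with a median over all members of 0.15 (11.1%). Groups did not overlap in 67 members that were higher, as in 33.4% of all genes. RPS26 (0.57), RPS9 (0.44, adjusted p = 0.0802 by edgeR, not called), RPS28 (0.39) and RPS19 (0.34) were among the largest positive values. Without control 24 h replicate 1, 9 members were called, and without either 12 h library, 44 were. The median was 0.18 without LatB 24 h replicate 1.

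A day in vehicle moved the median of the members little. Between control 24 h and control 0 h, edgeR called 0 members, 1 had an unadjusted p under 0.05, and DESeq2 also called 0, where edgeR called 0.251% of all genes (0.0299% higher and 0.221% lower). The median was -0.007, with a range of -0.31 to 0.29, and 37 of 76 members lay above 0. RPS18, called lower at 12 h, had 450, 395 and 406 CPM at control 0 h. It had 362 and 310 CPM at control 24 h and 324 and 288 CPM at LatB 12 h. The effect of LatB at 24 h was higher than that at 3 h for 2 members, RPS19 and RPS26, against 14.6% of all genes, and lower for 0. Over all members the median of this difference was 0.04, and without either 12 h library 6 were called.

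**Figure D2:**
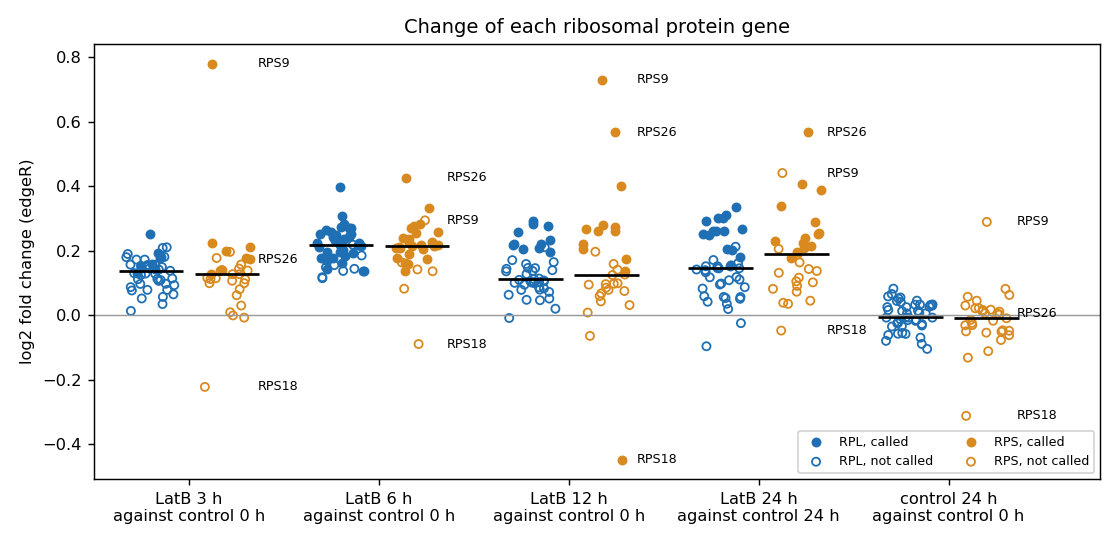
The log2 fold change of each ribosomal protein gene by edgeR in 5 comparisons, blue for the large subunit (RPL) and orange for the small subunit (RPS). Filled points were called at an adjusted p under 0.05, open points were not, and black lines are medians. The points lie above 0 in nearly all members under LatB and around 0 between the controls, and RPS9, RPS18 and RPS26 are named.

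**Figure D3:**
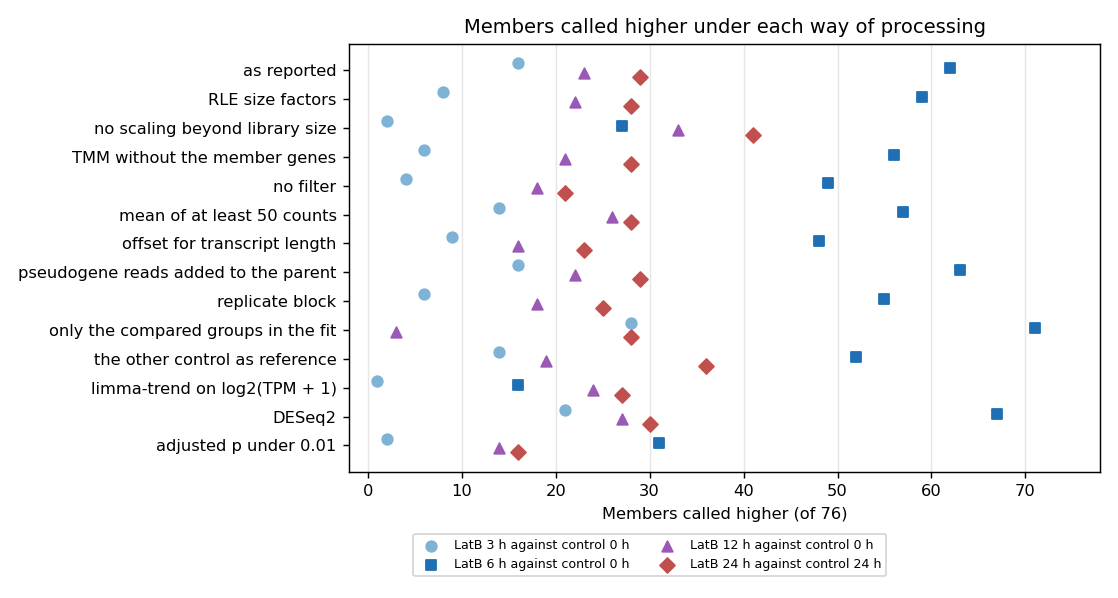
Number of the 76 members called higher (x axis) in the 4 LatB comparisons, for the reported fit and 13 other ways of processing (y axis). The 13 include an adjusted p under 0.01 and the use of the other control as reference. The 6 h comparison runs from 16 to 71 and the 3 h comparison from 1 to 28, so the size of the count depended on these choices.

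Among the small subunit proteins, RPS26, which touches messenger RNA where it leaves the ribosome, had the largest change at 6, 12 and 24 h among members other than RPS9. Its level was 84.1, 83.9 and 85.0 CPM at control 0 h and 83.6 and 85.8 CPM at control 24 h. It was 93.9, 102 and 90.0 CPM at 3 h, 112, 110 and 117 CPM at 6 h, 134 and 116 CPM at 12 h, and 124, 122 and 131 CPM at 24 h. No treated library overlapped a control library. The log2 change by edgeR was 0.17 at 3 h (SE 0.0570, adjusted p = 0.0319), 0.43 at 6 h (SE 0.0568, adjusted p = 5.35e-05) and 0.57 at both 12 h and 24 h (adjusted p = 1.90e-05 and 2.29e-05). At 6, 12 and 24 h the call held in each of the 30 alternative fits and thresholds, and at 3 h it was lost in 17.

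RPS19, which is needed for maturation of the small subunit RNA and is often mutated in Diamond-Blackfan anaemia, followed another course. It had 680, 662 and 633 CPM at control 0 h, 608 and 664 CPM at control 24 h, and 641, 675 and 649 CPM at 3 h. It had 737, 704 and 730 CPM at 6 h, 847 and 890 CPM at 12 h and 860, 779 and 776 CPM at 24 h. The 3 h libraries overlapped the controls. The 6 h, 12 h and 24 h libraries lay above all controls, and the change at 6 h was not called. RPS19 was highest in LatB 12 h replicate 2 and LatB 24 h replicate 1, with 2.02% and 1.84% of the reads of all members. That share was 1.65% in LatB 12 h replicate 1 and 1.59% and 1.60% in LatB 24 h replicates 2 and 3. In controls it was 1.43% to 1.55%. By edgeR the change was -0.01 at 3 h (adjusted p = 0.940), 0.40 at 12 h (adjusted p = 0.000179) and 0.34 at 24 h (adjusted p = 0.000566). The effect at 24 h exceeded that at 3 h by 0.35 (SE 0.0786, adjusted p = 0.00555 by edgeR).

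RPS6, the substrate of the S6 kinases, had 1254, 1182 and 1178 CPM at control 0 h and 1332, 1390 and 1442 CPM at 6 h. These groups did not overlap, and by edgeR the change of 0.20 was called (adjusted p = 0.0317), a call lost in 14 of the 30 alternatives. At 24 h it had 1296, 1426 and 1357 CPM against 1163 and 1196 CPM in control 24 h, a change of 0.21 that was not called (adjusted p = 0.0535 by edgeR). RPSA, which is also known as a laminin receptor, rose by 0.21 at 6 h and 0.23 at 24 h (adjusted p = 0.00499 and 0.00732 by edgeR). RPS28, close to the path of messenger RNA, rose by 0.22 at 6 h, 0.28 at 12 h and 0.39 at 24 h (adjusted p = 0.0123, 0.00717 and 0.000745 by edgeR). RPS14, located in the platform of the small subunit, was called in no comparison and had log2 changes of 0.01 at 3 h and 0.14 at 24 h.

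In the large subunit, the stalk that recruits elongation factors is built from RPLP0, RPLP1 and RPLP2. RPLP0 had 1433, 1332 and 1330 CPM at control 0 h, 1469 to 1552 CPM at 3 h and 1567 to 1645 CPM at 6 h. Neither treated group overlapped control 0 h. RPLP0 was called higher at each time, with log2 changes of 0.14, 0.22, 0.20 and 0.18 at 3, 6, 12 and 24 h. RPLP1 was also called at each time, with 0.19, 0.27, 0.28 and 0.30. At 3 h the calls of RPLP0 and RPLP1 were lost in 19 and 11 of the 30 alternatives. RPLP2 was called at 6 h (0.21) and 24 h (0.25) and not at 3 h (0.17, adjusted p = 0.0521 by edgeR) or 12 h (0.14, adjusted p = 0.150).

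RPL5 and RPL11 bind 5S ribosomal RNA. Of the 4 times RPL5 was called at 6 h (0.27, adjusted p = 0.00273 by edgeR), and it had 0.05 at 24 h. RPL11 was called at 3 h (0.15) and 6 h (0.16), with 503 to 548 CPM at control 0 h and 567 to 602 CPM at 6 h. These calls were lost in 22 and 11 of the 30 alternatives. RPL22 rose at 6 h (0.19) and RPL38, known for its part in the translation of Hox messenger RNAs, rose at 6 h as well (0.19, adjusted p = 0.0293 by edgeR). Neither was called at another time with all libraries, and the call at 6 h was lost in 8 alternatives for RPL22 and in 14 for RPL38.

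RPL28, a large subunit protein that budding yeast lacks, was high early. It had 428, 440 and 391 CPM at control 0 h and 414 and 433 CPM at control 24 h. It had 492, 506 and 501 CPM at 3 h, 541, 541 and 575 CPM at 6 h, 546 and 482 CPM at 12 h, and 433, 447 and 443 CPM at 24 h. The libraries from 3 h to 12 h lay above all controls and those at 24 h overlapped the range of control 0 h. The changes were 0.25, 0.40, 0.29 and 0.06 at 3, 6, 12 and 24 h (adjusted p = 0.00308, 6.84e-05, 0.00217 and 0.468 by edgeR). On log2 TPM, which divides by transcript length, the change at 3 h was -0.0038.

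Transcripts of different length shared the reads of RPL28. RPL28-201, of 4796 bases, took 12.7% to 14.4% of the gene's reads in controls, 19.1% to 19.8% at 3 h and 20.9% to 21.3% at 6 h. At 12 h it took 19.5% and 13.5%, and at 24 h 11.2% to 12.0%. RPL28-207, of 616 bases, took 49.8% to 51.5% in controls and 45.4% to 45.8% at 6 h. At 3 h and 6 h the share of the long transcript was higher, like the gene's count, and did not overlap the controls. In LatB 12 h replicate 2 the share lay within the control range, although the gene's count lay above all controls. At 24 h the share lay below all controls. RPL28-208, of 852 bases, took 11.1% to 13.9% in controls and 17.9% to 19.7% at 24 h. In RPS24, whose short transcripts differ in their last exons, RPS24-214 took 4.08% to 7.81% in controls and 10.5% to 12.1% at 24 h. These shares are estimates over overlapping transcripts and were not tested.

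RPL41, the smallest ribosomal protein, lies at the interface of the subunits and had 863, 814 and 804 CPM at control 0 h. It was called at each time, with 0.18, 0.24, 0.28 and 0.33 (adjusted p = 0.000504 at 24 h by edgeR). The call was lost in 9 of the 30 alternatives at 3 h, in 2 at 6 h, in 1 at 12 h and in 0 at 24 h. RPL3, close to the site of peptide bond formation, had 1829, 1808 and 1779 CPM at control 0 h, 1796 and 1856 CPM at control 24 h and 1692, 1715 and 1719 CPM at 24 h of LatB. The 24 h groups did not overlap and RPL3 had the lowest log2 change of all members there, -0.10 (adjusted p = 0.162 by edgeR, not called). RPL17, which lines the exit tunnel, had -0.02 at 24 h.

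Because most members moved together, each was also tested relative to the family, with library size set to the summed reads of the members. On this scale 2 members were higher and 3 lower at 3 h, 4 and 1 at 6 h, 12 and 4 at 12 h, and 10 and 6 at 24 h. Of all genes, 8.06%, 9.06%, 9.57% and 10.2% were higher and 21.6%, 34.8%, 24.0% and 26.4% lower at these times. Between the controls 0 members were called by edgeR on this scale, with 3 at an unadjusted p under 0.05, where 0.00599% of all genes were higher and 0.0479% lower. DESeq2 was not run on this scale. The standard deviation of the members' log2 changes was 0.10 at 3 h, 0.07 at 6 h, 0.14 at 12 h and 0.11 at 24 h. At 12 h this standard deviation was 0.12 without LatB 12 h replicate 2 and 0.17 without replicate 1, a repeat chosen after the data were seen.

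Relative to the family, RPS26 rose by 0.22 at 6 h, 0.43 at 12 h and 0.41 at 24 h (adjusted p = 0.00316, 6.88e-05 and 0.000104 by edgeR). RPL28 rose by 0.13, 0.19 and 0.16 at 3, 6 and 12 h and had -0.09 at 24 h. These are changes in reads, which are not divided by transcript length. In TPM, RPL28 had means of 1298, 1294, 1431 and 1451 at control 0 h, 3 h, 6 h and 12 h. The family's share of all TPM in these groups was 15.4%, 15.9%, 16.6% and 16.9%. RPL41, RPLP1 and RPS28 rose at 12 h and at 24 h, with 0.18, 0.15 and 0.24 at 24 h. RPL3 fell by 0.25 at 24 h and by 0.11 at 3 h (adjusted p = 0.000679 and 0.0446 by edgeR). RPL17, RPL37, RPL21 and RPS15A fell by 0.18, 0.13, 0.12 and 0.12 at 24 h. RPS14 fell by 0.11 at 3 h and 0.13 at 12 h. RPS19 rose by 0.27 at 12 h, or by 0.12 without LatB 12 h replicate 2. It was called at no other LatB time on this scale. Between 3 h and 24 h the effect increased for RPS26 (0.37), RPS19 (0.32) and RPS28 (0.22) and decreased for RPL28 (-0.22), against 10.8% and 12.0% of all genes. RPS18 and RPS9, the members with uncertain sequence, had -0.58 and 0.62 at 12 h, and RPS9 had 0.66 at 3 h. Without LatB 12 h replicate 2, RPS26 (0.42), RPLP1 (0.14) and RPS18 (-0.61) were still called at 12 h, and RPL28 (0.14), RPL41 (0.08), RPS28 (0.13), RPS9 (0.30) and RPS14 (-0.14) were not.

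**Figure D4:**
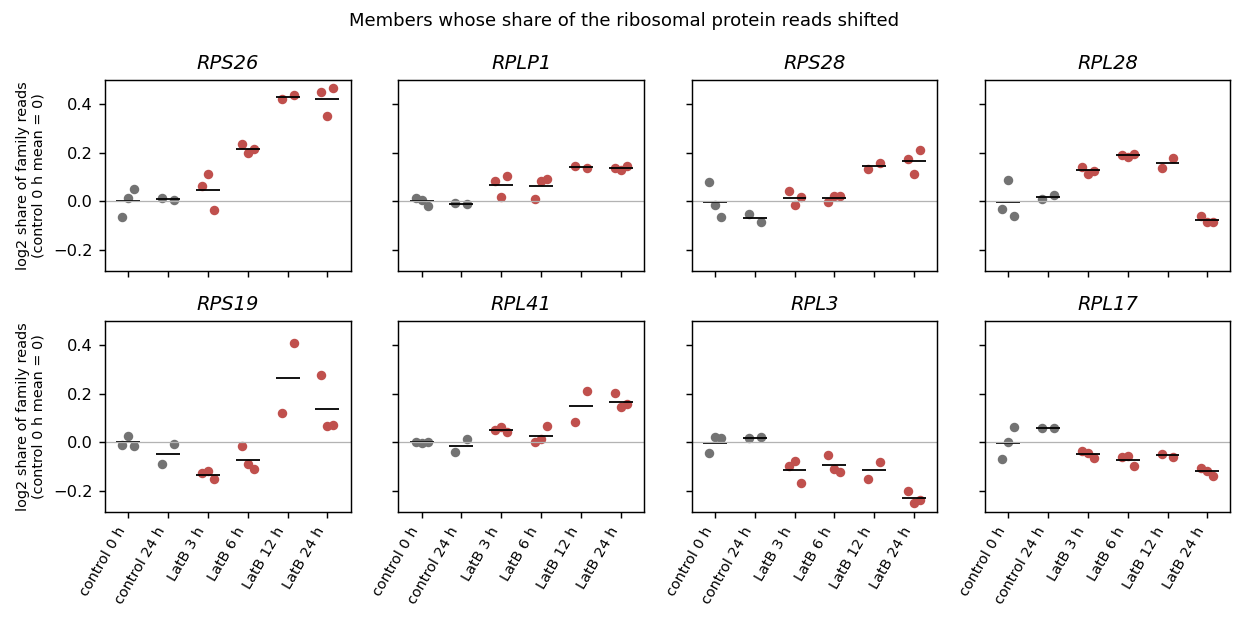
Share of 8 members in the reads of all 76 members, as log2 relative to the control 0 h mean (y axis), by group. Points are libraries, lines group means, grey marks controls and red LatB. RPS26 climbs to above 0.4 at 12 h, RPL28 is high from 3 h to 12 h and not at 24 h, and RPL3 is lowest at 24 h.

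Base composition was compared with the change within the family. Over the 76 members, whose transcripts ranged from 41.0% to 64.9% GC, Spearman's rho between GC content and log2 change was 0.16 at 3 h, 0.35 at 6 h, 0.40 at 12 h (0.38 without LatB 12 h replicate 2) and 0.45 at 24 h. Over all 16705 genes the same value lay between -0.06 and 0.01. Between the controls, without LatB, it was -0.46 over the members, and the comparison at 24 h shares the control 24 h libraries with it. The members share libraries and are not independent, and rho is given as a description. The length of the pyrimidine run near the start had rho of 0.05, 0.01, -0.03 and 0.12 over 61 members at the 4 times.

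Genes that build or resemble the ribosome were set beside the members. For the lists from here on, 16.8%, 22.9%, 19.1% and 21.9% of all genes tested were higher at 3, 6, 12 and 24 h. The shares that were lower were 14.7%, 20.4%, 16.8% and 18.8%. For the difference between 24 h and 3 h, 14.6% were higher and 13.4% lower. FAU, which encodes a ribosomal protein fused to a ubiquitin-like protein, was called higher at 6 h (0.29) and at 12 h (0.21, or 0.34 without LatB 12 h replicate 2 and 0.07, not called, without replicate 1). Of the paralogues with an L suffix, 6 of 8 were tested, and 0 were called at 3 h, 3 at 6 h, 1 at 12 h and 3 at 24 h. RPS27L fell by 0.61 at 6 h and RPL39L fell by 1.02, where RPL36AL rose by 0.17. At 24 h RPL22L1 (0.41), RPL26L1 (0.41) and RPL36AL (0.30) rose. At 3 h edgeR without LatB 12 h replicate 2 called 1 of the 6, and at 12 h it called 2.

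Other TOP messenger RNAs, mostly translation factors, were set beside the members next. Of 25, 11 were higher and 0 lower at 3 h, 23 and 0 at 6 h, and 9 and 1 at 12 h, with medians of 0.12, 0.25 and 0.12. Leaving out control 0 h replicate 2 or 3 or any 3 h or 6 h library left 5 or 6 other TOP messenger RNAs higher at 3 h, and the 9 at 12 h became 5 without replicate 1 and 15 without replicate 2. EIF3A (0.56) and NPM1 (0.44) led at 6 h. At 24 h, 4 were higher and 6 lower with a median of 0.02, which became -0.03 on log2 TPM, and 2 were lower without control 24 h replicate 2. TPT1 (0.40) and EEF1B2 (0.36) were higher there. The effect at 24 h was lower than that at 3 h in 8 of 25 and higher in 0, with IPO7 (-0.42) and PABPC1 (-0.40) first. Of 12 TOP genes that host small nucleolar RNAs, 1 was tested, SNHG32, which rose by 0.18, 0.25 and 0.32 at 3, 6 and 12 h, or 0.39 at 12 h without replicate 2.

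Ribosome biogenesis factors had larger medians than the members at each time, although the difference was not tested. Of 48 tested, 26 were higher at 3 h, 41 at 6 h, 21 at 12 h and 39 at 24 h, and 1 was lower, at 24 h. Their medians were 0.22, 0.46, 0.20 and 0.45, where those of the members were 0.13, 0.22, 0.13 and 0.15. UTP4 rose by 0.63 at 3 h and 0.80 at 6 h, DDX21, a nucleolar helicase, by 0.81 at 6 h, and RRP9 by 0.91 at 24 h. RRS1, which brings the 5S particle into the large subunit, rose by 0.77 at 12 h and 0.89 at 24 h. Of 11 chaperones and assembly factors dedicated to ribosomal proteins, 6, 7, 2 and 10 were higher at 3, 6, 12 and 24 h and 0 lower. GRWD1, the chaperone of RPL3, rose by 0.67 at 24 h, and RPF2 rose by 0.86 at 6 h. At 12 h, 36 ribosome biogenesis factors were higher without replicate 2 and 9 without replicate 1. For dedicated chaperones and assembly of ribosomal proteins the count was 6 without replicate 2 at 12 h, and 6 at 24 h without control 24 h replicate 1.

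Mitochondrial ribosomal proteins, encoded in the nucleus for a separate ribosome, had calls in both directions at 3 h and 6 h. At 6 h both counts were close to the shares over all genes. Of 78 tested, 7 were higher and 18 lower at 3 h, 16 and 18 at 6 h, 21 and 2 at 12 h, and 43 and 2 at 24 h. Their medians were -0.06, 0.01, 0.09 and 0.21, and the 6 h median became -0.08 without scaling beyond library size and -0.10 on log2 TPM. Without control 24 h replicate 1, 20 mitochondrial ribosomal proteins were higher at 24 h, without LatB 3 h replicate 2, 2 were at 3 h, and without control 0 h replicate 2, 13 were at 12 h. At 12 h without LatB 12 h replicate 2, 24 mitochondrial ribosomal proteins were higher and 0 lower. The effect at 24 h exceeded that at 3 h in 36 of 78. MRPS14 (-0.57) and MRPS31 (-0.54) fell at 3 h, and MRPS11 (0.51) rose at 24 h. A TOP-like start was found in 7.25% of 69 mitochondrial ribosomal promoters.

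**Figure D5:**
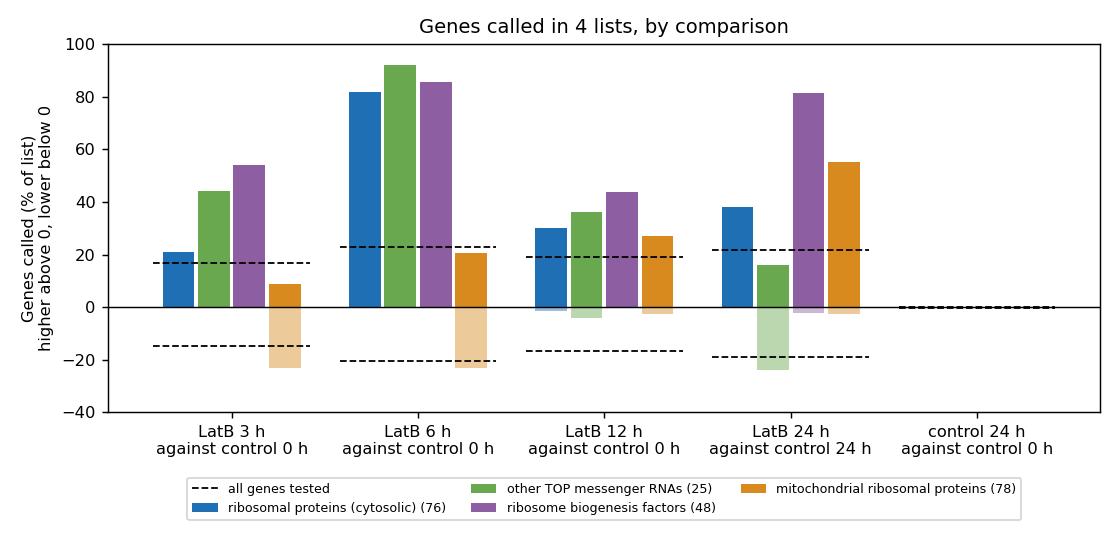
Percent of genes called higher (solid, above 0) and lower (pale, below 0) by edgeR in 4 lists and 5 comparisons, with the number of genes tested in brackets. Dashed lines give the same for all 16705 genes tested. At 24 h biogenesis factors (39 of 48) and mitochondrial ribosomal proteins (43 of 78) stand above the cytosolic ribosomal proteins (29 of 76), and between the controls no bar is visible.

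Genes that control the family were mixed. Of 17 genes of mTORC1 signalling and TOP translation, 7 were higher and 1 lower at 3 h, 6 and 1 at 6 h, 2 and 4 at 12 h, and 5 and 2 at 24 h. Without control 24 h replicate 1, 1 gene of TOP translation control by mTORC1 was higher at 24 h, and without LatB 12 h replicate 2, 1 was higher and 5 lower at 12 h. LARP1, which binds the TOP tract, rose by 0.46 at 6 h, and its relative LARP4B rose by 0.45 at 3 h and 0.63 at 6 h. RPS6KB1, which encodes the kinase of RPS6, rose by 0.40 at 3 h. Of 10 genes of the MYC network, 5, 5, 4 and 3 were higher and 2, 1, 1 and 1 lower at 3, 6, 12 and 24 h, and without LatB 12 h replicate 2, 7, 7, 3 and 5 genes of the MYC network were higher. MYC, an activator of ribosome production, rose by 2.48 at 3 h, from 16.5 to 92.2 CPM, and by 1.44 at 24 h. Its relative MYCN fell by 2.26 at 3 h, from 34.4 to 7.20 CPM.

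Of the 12 genes of the 5S particle and p53 response, edgeR called 0 at 3 h and 1 higher and 1 lower at 6 h. It called 7 higher at 12 h and 3 higher at 24 h. Without LatB 12 h replicate 2 the numbers were 0 higher and 2 lower at 3 h, 1 and 4 at 6 h, 3 and 1 at 12 h, and 4 and 0 at 24 h. BTG2 rose by 0.71 at 24 h. GDF15 (1.38) and MDM2 (1.03) led at 12 h with that library included. Between the controls edgeR called 0 genes in each of these lists.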

How the data were processed

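Poly(A) RNA libraries were sequenced by the authors, and per the labels' processing notes transcripts were quantified with Salmon 1.3.0 on hg38, whereas the study's methods describe STAR. The deposited estimated counts and TPM per transcript were summed per gene through GENCODE release 44: 165533 of 177456 transcripts matched by identifier, and transcripts without a match held 2.92% to 3.17% of reads. The authors' combined table, whose 16 columns of per-sample values were not used, was left out. Gene sums of the estimated counts were rounded, filtered with filterByExpr, scaled by TMM and tested two-sided with edgeR 4.0.16 (R 4.3.3) in one fit over 6 groups, with Benjamini-Hochberg adjustment over 16705 genes and calls at an adjusted p under 0.05. Alternatives used limma 3.58.1 on log2(TPM + 1), where a fold change of a low gene is understated, and DESeq2 1.42.0. Others used different scalings and filters, a transcript length offset, or the omission of each library in turn. Scaling to the summed family, the other control as reference and an adjusted p under 0.01 also count among the 30 alternatives.

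The members and lists were chosen with earlier results of these data known. Named members are the 5 largest changes in each direction per comparison, the 3 highest and 3 lowest levels, members with a set role and those most often called relative to the family. RPL7, RPL8, RPL27 and RPL36A met the rule and are covered by counts, and some other genes that met it are not reported here. From other lists at most 2 called genes per comparison were taken. Reads are counted without strand information known here, so overlapping antisense genes cannot be told apart. Replicate numbers did not pair libraries: the deviations of same-numbered libraries from their group means had a median correlation of -0.02 over 36 pairs (-0.241 to 0.116). Each value of a member rests on 1994 reads or more per library, and precision is set by the 2 or 3 libraries of a group.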

Additional observations from a re-analysis of the deposited data

Results flagged for a closer look

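For 2 members the effect of LatB at 24 h, taken against control 24 h, differed from that at 3 h, taken against control 0 h, by the edgeR test of the difference. The 3 h value has no vehicle group of its own time. RPS19 differed by 0.347 on the log2 scale (adjusted p = 0.00555), with a change of -0.01 at 3 h and 0.34 at 24 h. RPS26 differed by 0.394 (adjusted p = 0.00399), with changes of 0.17 and 0.57. Both differences were called in every alternative run, those without single libraries included, and relative to the summed family, where they were 0.32 and 0.37. With at most 3 libraries in a group, no test for single outlying libraries was applied.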

How the results depend on the processing

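Counts of called members depended on scaling and test more than the direction did. At 3 h the count of 16 became 8 with RLE size factors, 3 without scaling beyond library size (median 0.053), 6 with TMM computed without the members, 4 with no filter, 9 with the length offset, 28 with the compared groups only and 2 on log2 TPM with limma (median 0.044). At 6 h it became 27 without scaling (median 0.12) and 16 on log2 TPM (0.11), and at 12 h 4 with the compared groups only. An adjusted p under 0.01 left 2, 31, 15 and 16 at 3, 6, 12 and 24 h. The difference between 24 h and 3 h gave 14 without scaling (median 0.14), 5 with the compared groups only and 7 on log2 TPM (0.11). Scaled to the family, whose medians lie near 0 by construction, counts were 5, 5, 16 and 16 at 3, 6, 12 and 24 h and 5 for the difference, with medians of 0.0060, 0.0073, -0.016 and -0.0018. On that scale the 16 at 12 h became 6 and 17 without 1 or the other 12 h library, a repeat chosen after the data were seen. The cause of the other shifts was not tested.

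With the replicate number as a block, counts were 7, 55, 19 and 25 at 3, 6, 12 and 24 h, 0 between controls and 2 for the difference, although the numbers do not pair libraries. Leaving out single libraries gave 2 to 45 at 3 h (median 0.096 to 0.16), 27 to 73 at 6 h (0.16 to 0.25), 10 to 62 at 12 h (-0.0078 to 0.25), 9 to 44 at 24 h (0.13 to 0.18), 0 to 0 between controls (-0.03 to 0.03) and 2 to 6 for the difference (0.0016 to 0.058). As a share of TPM the members took 15.4%, 15.4%, 15.9%, 16.6%, 16.9% and 17.1% in control 0 h, control 24 h and LatB 3, 6, 12 and 24 h, and on protein-coding transcripts alone 3.77%, 3.80%, 3.88%, 4.08%, 4.19% and 4.32% of reads.

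Of 204 results for named members, 16 turned sign under an alternative with a call before or after. Relative to the family these were RPL11 (-0.047), RPL17 (-0.070), RPL21 (-0.0058), RPL22 (-0.013), RPL31 (-0.037), RPL38 (-0.015), RPS15A (-0.048) and RPS6 (-0.0035) at 6 h, RPL21 (-0.12), RPL37 (-0.13), RPL7 (-0.0014) and RPS15A (-0.12) at 24 h, RPL3 (-0.11) and RPS14 (-0.11) at 3 h and RPS14 (-0.13) at 12 h. RPL28 at 3 h turned to -0.0038 on log2 TPM.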
